A study of Homo sapiens with 14 samples.

Results

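Protein palmitoylation and myristoylation attach fatty acids to proteins, and FASN, fatty acid synthase, makes the palmitate that feeds the first of these modifications. The enzymes described here are the human protein-coding genes with a ZDHHC symbol, which encode palmitoyltransferases, together with the thioesterases LYPLA1, LYPLA2, PPT1, PPT2, ABHD17A, ABHD17B and ABHD17C and the N-myristoyltransferases NMT1 and NMT2. By symbol, 33 of the 62749 genes in the files were found: 24 ZDHHC genes, 7 thioesterase genes and 2 NMT genes. The rule for members uses gene symbols alone, and 32 of the 33 passed the filter on low counts; ZDHHC19 did not.

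The data are 14 RNA sequencing libraries of tumours that UMUC3, a cell line from a human bladder carcinoma, formed in mice. The cells had been cultured either in regular medium or in 10% cigarette smoke medium (CSM) before they were engrafted. The groups were FASN knockdown after CSM (n = 4), control after CSM (n = 4), FASN knockdown in regular medium (n = 3) and control in regular medium (n = 3). The titles give every control a control short hairpin RNA, all groups share the UMUC3 background and the mouse host, and the sources used here do not give the knockdown method, the number of clones, the host strain or the length of exposure. No label states that replicates are separate animals, so the p-values rest on a spread between libraries that may partly be technical.

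The summed counts ran from 15810287 to 45209466 per library. 7SL RNA, part of the signal recognition particle, took 2.64% to 25.6% of the counts, above 15% in 2 libraries, namely replicate 2 of the FASN knockdown and replicate 3 of the control after CSM. FASN itself had 121, 99.9 and 132 CPM (read counts scaled by each library's TMM-normalised total) in the FASN knockdown libraries, against 571, 404 and 379 CPM in the control libraries, a log2 fold change of -1.94 (SE 0.33, adjusted p = 0.0245 by edgeR's quasi-likelihood test). Leaving out any 1 of these 6 libraries gave adjusted p-values of 0.0549 to 0.137 for FASN. After CSM it had 220, 166, 301 and 479 CPM in those labelled FASN knockdown, against 456, 479, 423 and 366 CPM in the control libraries, a log2 fold change of -0.57 (SE 0.28, adjusted p = 0.288 in edgeR). Replicate 4 labelled FASN knockdown after CSM therefore stood at control level for FASN, against its label. The log2 fold change after CSM was -0.90 without that library (adjusted p = 0.108 in edgeR) and -0.37 without replicate 2 of the same group (adjusted p = 0.46 in edgeR). Of 16 urothelial and epithelial markers, 7 averaged at least 1 TPM (Salmon's level per transcript length), led by KRT18 at 89.2 TPM and KRT8 at 59.5 TPM. UPK3A and KRT20 were listed at 0 TPM in every library, while all 6 mesenchymal markers averaged above 1 TPM, with VIM at 977 TPM. Of human markers of other cell types, 0 of 5 endothelial, 0 of 5 adipocyte and 0 of 4 skeletal muscle genes averaged 1 TPM. Of 7 fibroblast genes only COL1A1 did, at 1.22 TPM. Only human transcripts were listed, so no marker here is a measure of mouse host cells. Of 7 myeloid and leukocyte markers, CD68 averaged 44.1 TPM and LYZ 4.73 TPM. The rest were below 1 TPM: ITGAM at 0.611, PTPRC at 0.108, CD14 at 0.0899, CSF1R at 0.0291 and CD3E at 0.0172 TPM. Of 4 neuronal markers, 2 averaged at least 1 TPM. In bulk tissue, fewer cells of a type and less RNA per cell cannot be told apart.

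S-palmitoylation, or S-acylation, links a fatty acid to a cysteine by a thioester bond. ZDHHC enzymes, named for a zinc-binding domain with an Asp-His-His-Cys motif, sit in the membranes of the endoplasmic reticulum, Golgi and cell surface, load the acyl chain from acyl-CoA onto their own cysteine and hand it to the substrate. LYPLA and ABHD17 thioesterases remove the chain again on the cytosolic side, so that the modification cycles. PPT enzymes are thioesterases of the lysosome. N-myristoylation joins myristate to an amino-terminal glycine by an amide bond, is made by the NMT enzymes during or after translation, and is in general not reversed. Ras proteins, Src family kinases and G protein alpha subunits are classical substrates.

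By level per length, a pair of thioesterases led. LYPLA1, the cytosolic acyl-protein thioesterase 1, averaged 63.4 TPM over the 14 libraries, and PPT1, the lysosomal palmitoyl-protein thioesterase, averaged 44.7 TPM. LYPLA1 was above PPT1 in 12 of 14 libraries. ZDHHC5, a palmitoyltransferase of the cell surface, came next with 32.4 TPM, below PPT1 in 13 of 14 libraries. By mean CPM, which is not scaled by length, ZDHHC5 stood above both, at 115 against 105 for PPT1 and 90.7 for LYPLA1. Protein-coding transcripts held 50.3% of the TPM of LYPLA1, 59.0% for PPT1 and 90.3% for ZDHHC5. The order of these genes therefore depends on the measure. Together these 3 genes held 33.7% of the summed TPM of the 33, and the 10 highest genes held 67.7%. They are followed by ZDHHC8, the close relative of ZDHHC5, at 28.0 TPM, LYPLA2 at 23.2 TPM, NMT1 at 20.6 TPM and ABHD17A at 19.0 TPM. ZDHHC5 was above ZDHHC8 in only 9 of 14 libraries, and ABHD17A was above the next gene, ZDHHC17, in 7 of 14, so these neighbours do not separate. Levels of 10 to 20 TPM were also found for ZDHHC17, ZDHHC3, ZDHHC16, ZDHHC4, ZDHHC7, ZDHHC24, ZDHHC2 and ZDHHC20, and 15 genes in all reached 10 TPM.

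Below these stood ZDHHC6 at 9.45 TPM, ZDHHC9 at 9.25 TPM, NMT2 at 8.41 TPM, PPT2 at 8.08 TPM, ZDHHC23 at 7.81 TPM, ZDHHC12 at 7.62 TPM, ZDHHC18 at 6.31 TPM and ZDHHC21 at 5.00 TPM. ZDHHC14, ZDHHC13, ZDHHC11, ABHD17B, ABHD17C, ZDHHC1 and ZDHHC15 ranged from 3.41 TPM for ZDHHC14 to 1.32 TPM for ZDHHC15. ZDHHC11B averaged 0.598 TPM, ZDHHC22 0.404 TPM and ZDHHC19 0.0882 TPM, the last with 23 counts over all libraries. ZDHHC11 and ZDHHC11B lie near each other on chromosome 5 and are near-identical copies, and PPT2 shares sequence with a read-through transcript into EGFL8, so the split of reads to these genes is uncertain. NMT1 stood above NMT2 in every library, at 6.39 to 33.7 TPM for NMT1 and 2.79 to 17.3 TPM for NMT2. The summed TPM of the 33 genes was 161 in the library with 25.6% 7SL and 628 in a library with 2.67% 7SL. Comparisons between groups therefore rest on the count model.

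**Figure D1:**
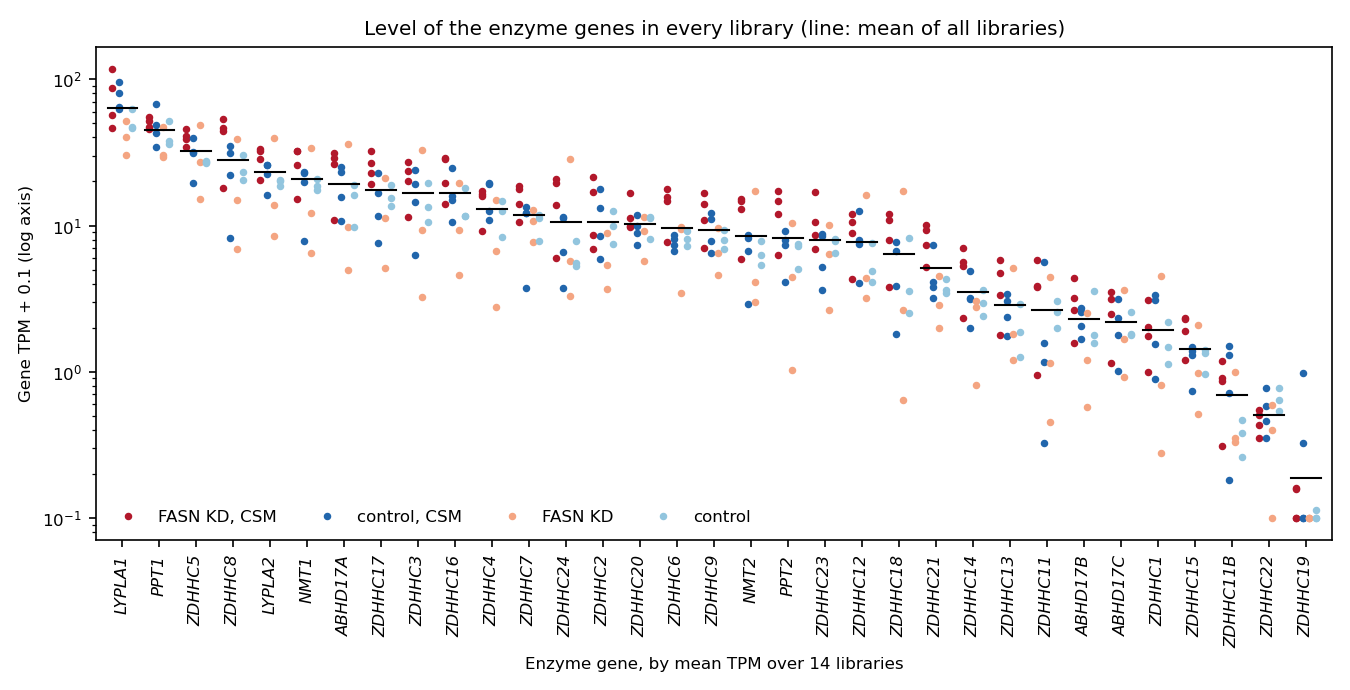
TPM + 0.1 of each of the 33 enzyme genes (log axis) in each of the 14 libraries, coloured by group, with the mean of all libraries as a line. LYPLA1 at a mean of 63.4 TPM and PPT1 at 44.7 TPM stand highest, and ZDHHC22 and ZDHHC19 lowest.

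The first question of the design was what FASN knockdown did. Averaged over both media, 1 of 32 enzyme genes was called at an adjusted p below 0.05, against 3.52% of the 22560 genes tested, a share near the background. The called gene was ZDHHC4, a palmitoyltransferase of the endoplasmic reticulum that is known to act on the fatty acid transporter CD36. It was lower in the knockdown by 0.63 on the log2 scale, a fold of 0.647 (95% interval 0.507 to 0.824). After CSM, 0 of 32 were called (background 1.17%), with 5 at an unadjusted p below 0.05 (background 18.5%), and in regular medium 0 of 32 were called (background 0.204%), with 1 at an unadjusted p below 0.05 (background 9.08%). DESeq2 called ZDHHC4 and ZDHHC6 after CSM and averaged over both media and no member in regular medium, and limma on log2(TPM + 1) called none in any of these. The members' 95% intervals lay within 1 on either side of 0 on the log2 scale for 28 of 32 genes averaged over both media, for 23 of 32 after CSM and for 18 of 32 in regular medium, so for these a change of more than 2-fold lay outside the interval.

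ZDHHC4 (chr7:6577434-6589374, plus strand, GRCh38) had 9.93, 11.2, 11.3 and 14.27 CPM in the CSM libraries labelled FASN knockdown, against 17.1, 22.4, 24.9 and 14.29 CPM in the control libraries after CSM. In regular medium it had 11.2, 13.0 and 9.95 CPM in the knockdown libraries, against 17.4, 17.3 and 13.7 CPM in the control libraries. The groups did not overlap in either medium, although after CSM the nearest libraries, replicate 4 of each group, were nearly level. The log2 fold change was -0.75 after CSM (SE 0.22, adjusted p = 0.0932) and -0.51 in regular medium (SE 0.25, adjusted p = 0.575), and averaged over both media it was -0.63 (SE 0.16, adjusted p = 0.0471), all by edgeR. The call was marginal. The sign held in every alternative fitted, but the adjusted p ran from 0.00982 in DESeq2 to 0.694 in limma on log2(TPM + 1). Leaving out 1 library gave adjusted p-values of 0.0454 to 0.136 in edgeR, and the call stayed below 0.05 only without replicate 4 of either group after CSM. It held with the library whose FASN went against its label left out (adjusted p = 0.046 in edgeR) and was lost without the 2 libraries above 15% 7SL (adjusted p = 0.0818 in edgeR, log2 fold change -0.61).

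ZDHHC6 (chr10:112424428-112446917, minus strand, GRCh38) moved the other way after CSM. This palmitoyltransferase of the endoplasmic reticulum works with selenoprotein K and is known to act on calnexin. It had 30.0, 29.5, 30.7 and 29.3 CPM in the CSM libraries labelled FASN knockdown, against 22.2, 21.6, 22.8 and 21.5 CPM in the control libraries after CSM. The groups were narrow and did not overlap. The log2 fold change was 0.44 (SE 0.15, adjusted p = 0.152 in edgeR), so the gene was not called. In regular medium ZDHHC6 had 31.1, 23.1 and 23.9 CPM in the knockdown libraries, against 22.5, 23.1 and 23.6 CPM in the control libraries, where 2 of 3 knockdown libraries lay above every control, 1 of them by a small margin, and 1 lay among the controls. ZDHHC6 is listed with 26 transcripts, and with an offset for effective transcript length the log2 fold change after CSM was 0.04.

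The annotated start of ZDHHC6 nearest the gene body is shown as the region before the one member gene that stood higher in every knockdown library than in every control library after CSM. The RefSeq window covers the 250 bases upstream of the start (chr10:112446915-112447164, GRCh38.p14, printed 5′ to 3′ on the minus strand), and capitals mark its only match to the motifs searched, the aryl hydrocarbon receptor core GCGTG read on the opposite strand. A second RefSeq start of ZDHHC6 has the window chr10:112447573-112447822, where none of the motifs matched.
ZDHHC6 upstream region: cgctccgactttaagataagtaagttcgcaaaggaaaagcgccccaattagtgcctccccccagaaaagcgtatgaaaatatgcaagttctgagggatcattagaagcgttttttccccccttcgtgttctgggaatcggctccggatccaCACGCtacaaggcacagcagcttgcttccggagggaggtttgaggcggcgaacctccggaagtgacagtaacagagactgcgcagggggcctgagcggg
Windows of 250 bases before to 50 after a start were matched for 26 of the 33 genes, 31 windows in all, and both strands were searched, with overlaps between motifs allowed. The AhR core GCGTG was in 16 of 31 member windows (51.6%) and in 36.5% of all 35116 windows. The sterol element TCACNCCAC of SREBP factors was in 0 of 31 member windows and in 1.13% of all windows. The E-box CACGTG was in 4 of 31 (12.9%) against 7.26% of all windows, and the NRF2 element TGACNNNGC in 2 of 31 (6.45%) against 13.3% of all windows. These are matches of letters and were not tested.

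Further ZDHHC genes with the smallest p in a comparison were not called. ZDHHC2, a palmitoyltransferase known to act on tetraspanins and CKAP4, had 30.2, 35.8, 38.6 and 44.7 CPM in the CSM libraries labelled FASN knockdown, against 53.4, 49.2, 61.9 and 48.4 CPM in the control libraries after CSM. The groups did not overlap, and the log2 fold change was -0.51 (SE 0.19, adjusted p = 0.178 in edgeR), but limma on log2(TPM + 1) gave 0.21. In regular medium it had 42.1, 39.0 and 26.3 CPM in the knockdown libraries, against 46.6, 47.4 and 37.1 CPM in the control libraries, which overlapped, and the log2 fold change was -0.29, or -0.14 without replicate 3 of the knockdown. Averaged over both media the log2 fold change of ZDHHC2 was -0.40 (SE 0.15, adjusted p = 0.142 in edgeR). ZDHHC24, whose substrates are little known, had 46.3, 48.7 and 101 CPM in the knockdown libraries, against 39.2, 32.4 and 36.2 CPM in the control libraries in regular medium. It was higher in every knockdown library, but 1 of them stood far above the others, and the log2 fold change of 0.86 (SE 0.31, adjusted p = 0.396 in edgeR) was 0.37 without that library. After CSM ZDHHC24 had 66.7, 38.7, 53.7 and 43.7 CPM in those labelled FASN knockdown, against 49.6, 47.8, 37.3 and 29.7 CPM in the control libraries, which overlapped, and averaged over both media its log2 fold change was 0.58 (SE 0.20, adjusted p = 0.122 in edgeR), or 0.34 without replicate 3 of the knockdown in regular medium. ZDHHC14 had the next smallest p in regular medium, with 15.6, 9.40 and 8.62 CPM in the knockdown libraries, against 18.9, 17.2 and 13.5 CPM in the control libraries. These overlapped, and the log2 fold change was -0.56 (SE 0.27, adjusted p = 0.559 in edgeR), or -0.89 without replicate 1 of the knockdown. ZDHHC22, which averaged under 3 CPM in every group, had a fold of 0.499 averaged over both media (95% interval 0.251 to 0.994, adjusted p = 0.251 in edgeR). Averaged over both media, 5 of 32 members had an unadjusted p below 0.05, against 19.6% of all genes tested.

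Groups that did not overlap were found for 4 of 32 members after CSM, against 16.2% of all genes tested, and for 5 of 32 in regular medium, against 11.8%. After CSM these were ZDHHC4, ZDHHC2 and ZDHHC22, lower in the knockdown, and ZDHHC6, higher. In regular medium ZDHHC4, ZDHHC22, ABHD17B and PPT2 were lower and ZDHHC24 was higher. Across both media, 16 of 32 members (50%) had the same sign in each medium, 13 of them lower, while 63.0% of all genes tested had the same sign.

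**Figure D2:**
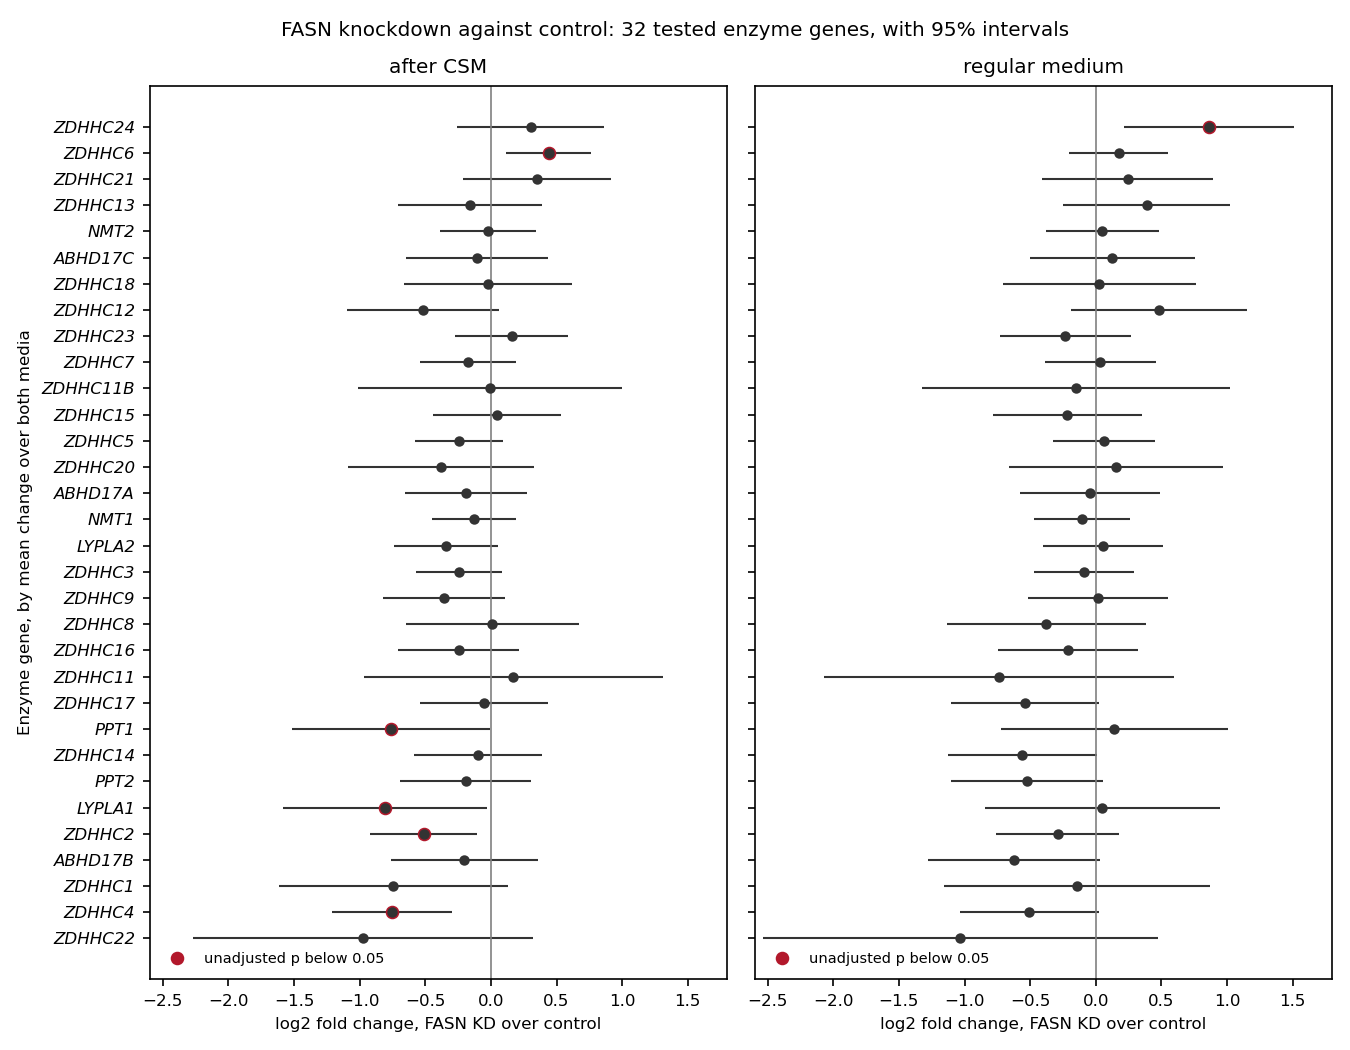
Log2 fold change of FASN knockdown over control for the 32 tested enzyme genes with 95% intervals, after CSM on the left and in regular medium on the right, ordered by the mean of both media; red marks an unadjusted p below 0.05. The red points are 5 genes after CSM, of which LYPLA1 at -0.81 lies farthest from 0, and ZDHHC24 at 0.86 in regular medium.

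The thioesterases and NMTs gave no call in either medium. LYPLA1 had 47.1, 86.4, 57.0 and 87.6 CPM in the CSM libraries labelled FASN knockdown, against 73.7, 105, 197 and 111 CPM in the control libraries after CSM. PPT1 had 39.2, 96.2, 81.6 and 84.9 CPM in those knockdown libraries, against 88.0, 114, 185 and 124 CPM in the control libraries after CSM. For both genes the groups overlapped and the control library with 16.3% 7SL stood highest. The log2 fold change was -0.81 for LYPLA1 (SE 0.37, adjusted p = 0.256) and -0.76 for PPT1 (SE 0.35, adjusted p = 0.268), both in edgeR, and LYPLA1 had -0.47 without replicate 3 of the control after CSM. In regular medium LYPLA1 had 113, 113 and 32.2 CPM in the knockdown libraries, against 75.2, 88.9 and 84.2 CPM in the control libraries, and PPT1 had 137, 166 and 45.3 CPM in the knockdown libraries, against 101, 114 and 99.8 CPM in the control libraries. The knockdown libraries lay on both sides of the controls.

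ZDHHC5, the highest palmitoyltransferase, had 85.1, 108, 113 and 112 CPM in the CSM libraries labelled FASN knockdown, against 111, 132, 129.6 and 122 CPM in the control libraries after CSM. The groups overlapped, and the log2 fold change was -0.24 (SE 0.16, adjusted p = 0.413 in edgeR), or -0.14 without replicate 1 of the knockdown. In regular medium ZDHHC5 had 133, 118 and 109 CPM in the knockdown libraries, against 119, 115 and 111 CPM in the control libraries, and a log2 fold change of 0.06 (SE 0.18, adjusted p = 0.971 in edgeR). NMT1, the main N-myristoyltransferase, was among the steadiest members, with a coefficient of variation of 8.45% over all libraries. It averaged 96.6 ± 11.1 CPM in the CSM libraries labelled FASN knockdown and 106 ± 4.90 CPM in the control libraries after CSM (SD, n = 4 each). Its log2 fold change after CSM was -0.13 (95% interval -0.45 to 0.19), or -0.03 without replicate 1 of the knockdown. NMT2, the second N-myristoyltransferase, had a log2 fold change of -0.02 (95% interval -0.39 to 0.35). In regular medium NMT1 averaged 105 ± 5.11 CPM in the knockdown libraries and 113 ± 3.48 CPM in the control libraries (SD, n = 3 each), and the log2 fold changes were -0.11 for NMT1 and 0.05 for NMT2.

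After CSM, 25 of 32 members had a log2 fold change below 0, with a median of -0.18, and all 7 thioesterases and both NMT genes were among them. Over all genes tested 49.6% were below 0 with a median of 0.01, but among the 14519 tested genes with a protein-coding transcript 63.4% were below 0 with a median of -0.16. The direction depends on the scaling: with upper-quartile factors, which moved the median of all genes to 0.16, or with normalisation over protein-coding genes alone, 18 of 32 members were below 0, and with limma on log2(TPM + 1), which moved the median of all genes to 0.39, 5 of 32 were. Both NMT genes were above 0 under each of these 3, and 6, 6 and 1 of 7 thioesterases were below 0. In regular medium 17 of 32 members were below 0, with a median of -0.07. The background was 48.6% of all genes tested and 51.9% of those with a protein-coding transcript. This split also depended on the processing. It was 15 of 32 with the length offset, 22 with the log2 share of 7SL as a covariate and 26 with limma. Under limma all 7 thioesterases and both NMT genes were below 0 in regular medium. Averaged over both media 25 of 32 were below 0, with a median of -0.13, against 60.6% of tested genes with a protein-coding transcript. That count was 18 with upper-quartile factors, 19 with protein-coding genes alone, 16 of 31 with protein-coding transcripts alone and 8 with limma.

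**Figure D3:**
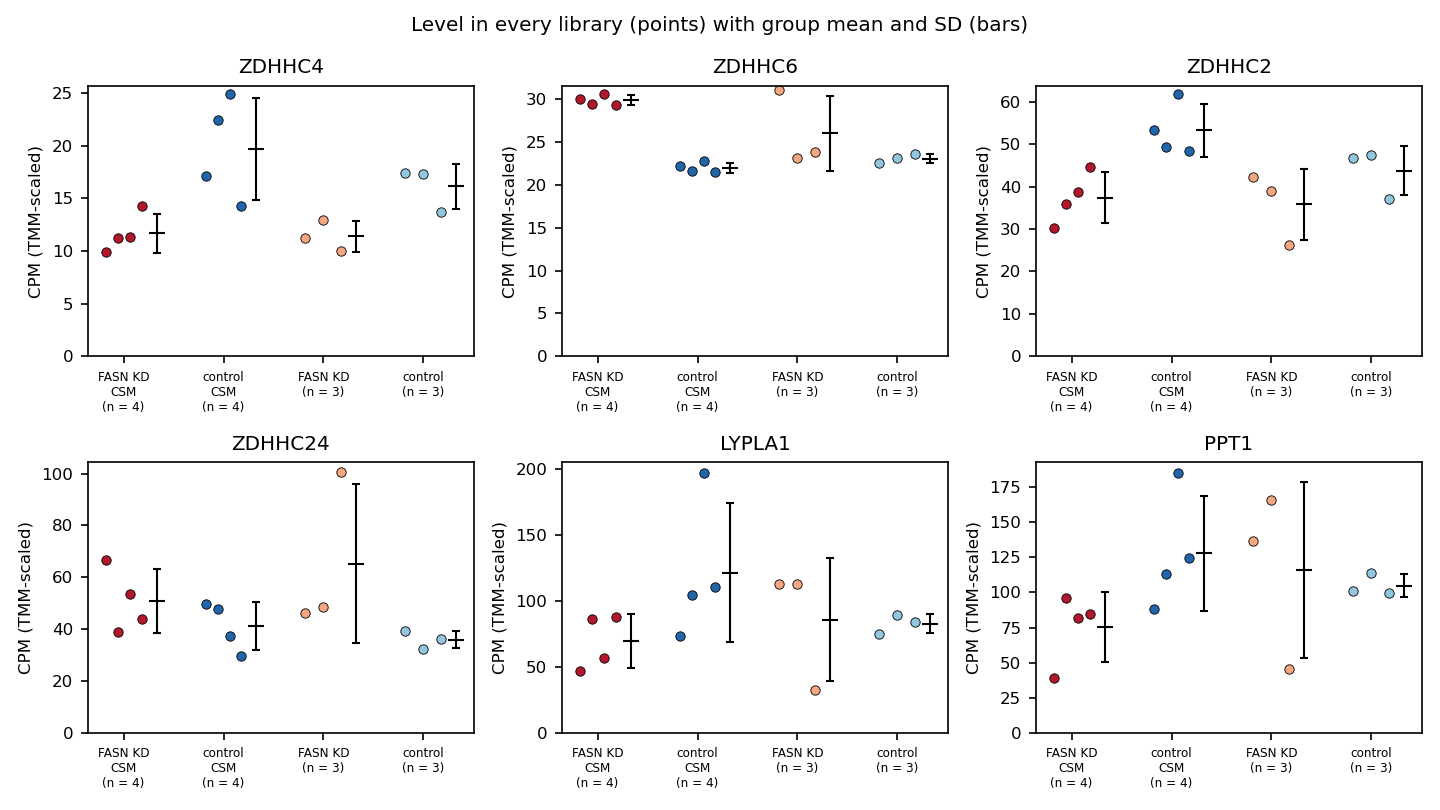
CPM on TMM-scaled totals of ZDHHC4, ZDHHC6, ZDHHC2, ZDHHC24, LYPLA1 and PPT1 in every library (points), with the group mean and SD beside them, for FASN knockdown after CSM, control after CSM, FASN knockdown and control. ZDHHC6 runs from 29.3 to 30.7 CPM in the knockdown after CSM and from 21.5 to 22.8 CPM in the control after CSM.

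The second question was what pre-exposure to smoke medium did. In control cells and in FASN knockdown cells, 0 of 32 members were called by edgeR between CSM and regular medium, against 0% of all genes tested in each, and 0 of 32 had an unadjusted p below 0.05, against 1.4% and 6.67% of all genes. DESeq2 and limma on log2(TPM + 1) also called none. The genes with the smallest p are given here. In control cells ZDHHC12, which is known from mouse and human work to act on NLRP3, had 9.28, 15.7, 11.3 and 10.2 CPM after CSM, against 10.7, 6.03 and 7.26 CPM in regular medium. The groups overlapped, and the log2 fold change was 0.54 (SE 0.30, 95% interval -0.09 to 1.17). LYPLA1 had a log2 fold change of 0.55 (SE 0.40) and ZDHHC2 of 0.28 (SE 0.21), from 53.4, 49.2, 61.9 and 48.4 CPM after CSM, against 46.6, 47.4 and 37.1 CPM in regular medium for ZDHHC2, whose groups did not overlap. The value of ZDHHC12 was 0.82 without replicate 1 of the control in regular medium and 0.35 without replicate 2 of the control after CSM. LYPLA1 had 0.21 without replicate 3 of the control after CSM, and ZDHHC2 had 0.17 without replicate 3 of the control in regular medium.

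In knockdown cells ZDHHC14 had 14.1, 12.3, 17.7 and 20.1 CPM after CSM, against 15.6, 9.40 and 8.62 CPM in regular medium. The groups overlapped, and the log2 fold change was 0.52 (SE 0.25, adjusted p = 0.76 in edgeR). PPT2, the second lysosomal thioesterase, had 9.31, 9.34, 15.2 and 14.5 CPM after CSM, against 10.2, 6.10 and 10.6 CPM in regular medium, which overlapped, and a log2 fold change of 0.43 (SE 0.26, adjusted p = 0.806 in edgeR). PPT1 had a log2 fold change of -0.62 (SE 0.38, adjusted p = 0.808 in edgeR), which became 0.27 with the log2 share of 7SL as a covariate. Leaving out replicate 1 of the knockdown in regular medium gave ZDHHC14 0.84, and leaving out replicate 2 gave PPT2 0.20 and PPT1 -0.30. PPT1 was -0.95 without replicate 3 of that group and -0.37 without replicate 1 of the knockdown after CSM. Non-overlapping groups were found for 2 of 32 members in control cells, where ZDHHC2 was higher and NMT1 lower after CSM, against 4.07% of all genes. They were found for 1 of 32 in knockdown cells, where ABHD17B was higher after CSM, against 5.91% of all genes. The median log2 fold change of the members was 0.10 in control cells and 0.02 in knockdown cells. Over tested genes with a protein-coding transcript it was 0.04 and -0.08. In knockdown cells limma on log2(TPM + 1) gave a median of 0.76, with 0 of 32 members below 0. The offset for effective transcript length gave -0.07, with 20 of 32 below 0. In control cells these medians were 0.08 and 0.15. No value over all genes stands beside these alternatives, so they are not read as a change of the enzymes.

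The interaction subtracts the knockdown effect in regular medium from the one after CSM. It called 0 of 32 members, against 0% of all genes, and 1 of 32 had an unadjusted p below 0.05, against 5.22% of all genes. The 1 gene was ZDHHC12, whose knockdown fold after CSM was 0.501 times that in regular medium (95% interval 0.271 to 0.924, adjusted p = 0.942 in edgeR). It had 6.30, 6.60, 9.15 and 10.4 CPM in the CSM libraries labelled FASN knockdown and 9.28, 15.7, 11.3 and 10.2 CPM in the control libraries after CSM, and it had 8.16, 11.8 and 13.5 CPM in the knockdown libraries and 10.7, 6.03 and 7.26 CPM in the control libraries in regular medium. The groups overlapped in each medium. PPT1 had an interaction of -0.90 on the log2 scale (SE 0.54) and LYPLA1 of -0.86 (SE 0.56), both with an adjusted p of 0.945 in edgeR. The interaction of PPT1 was -0.58 without replicate 2 of the knockdown in regular medium, and that of LYPLA1 was -0.52 without replicate 3 of the control after CSM. The 95% interval of the interaction lay within 1 on either side of 0 for 11 of 32 members, and for the others it reached past a 2-fold difference between the media.

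LYPLA1 and PPT1 were high in the libraries with most 7SL RNA and lowest in libraries with little, but not every library with little was low. Replicates 2 and 4 of the control after CSM, at 4.97% and 6.33% 7SL, had 105 and 111 CPM of LYPLA1 and 114 and 124 CPM of PPT1. The 2 libraries above 15% 7SL had 197 and 113 CPM of LYPLA1 and 185 and 166 CPM of PPT1, while replicate 3 of the FASN knockdown, at 3.89% 7SL, had 32.2 CPM of LYPLA1 and 45.3 CPM of PPT1. The summed TPM of the ZDHHC genes over that of the thioesterases was 0.789 in the control after CSM library with 16.3% 7SL and 1.95 in replicate 3 of the FASN knockdown. By group the ratio averaged 1.50 ± 0.24 in the CSM libraries labelled FASN knockdown and 1.18 ± 0.36 in the control libraries after CSM (SD, n = 4 each), and 1.39 ± 0.49 in the knockdown libraries and 1.37 ± 0.10 in the control libraries in regular medium (SD, n = 3 each). The groups overlapped. LYPLA1 and PPT1 together held 13.4% to 41.4% of the summed TPM. With the log2 share of 7SL as a covariate the interaction of LYPLA1 was 0.055 on the log2 scale. The 7SL share also differed between the groups compared after CSM. It was 2.73%, 11.3%, 2.64% and 2.67% in the libraries labelled FASN knockdown, against 4.20%, 4.97%, 16.3% and 6.33% in the control libraries. Whether the fold changes of LYPLA1 and PPT1 after CSM follow the 7SL share was not tested.

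**Figure D4:**
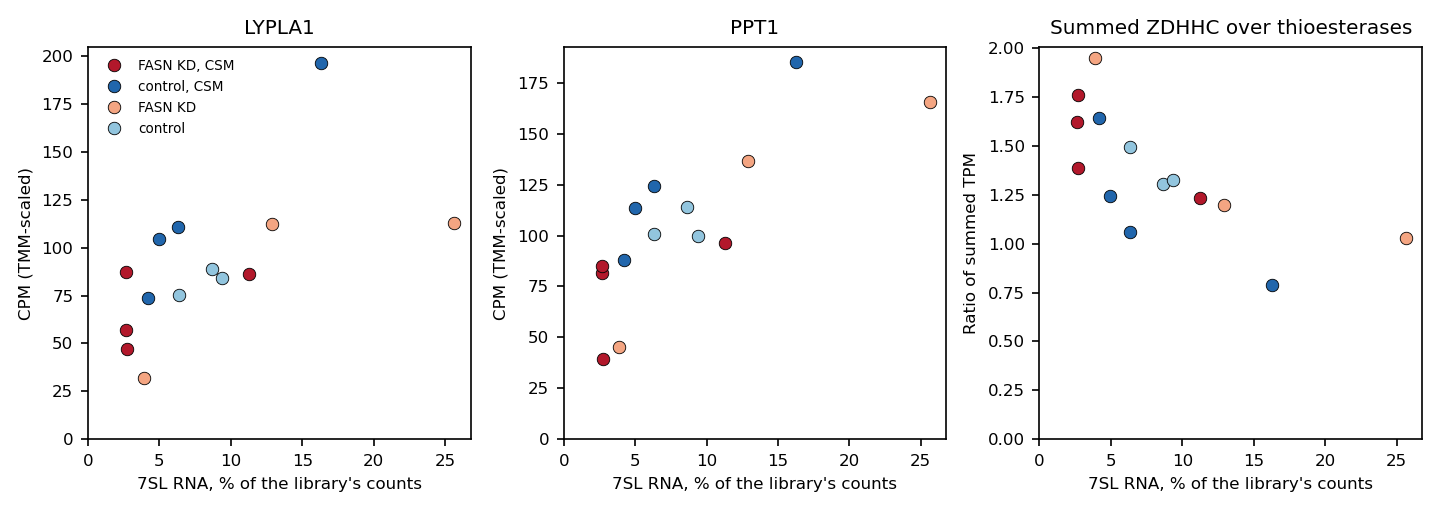
CPM of LYPLA1 and of PPT1 and the ratio of summed ZDHHC to summed thioesterase TPM (y axes) against the share of a library's counts on 7SL RNA (x axis), 1 point per library and coloured by group. LYPLA1 was highest, at 197 CPM, in the library with 16.3% 7SL, which also had the lowest ratio, 0.789.

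Transcript by transcript, the 33 genes were listed with 300 transcripts. The transcript with most TPM was protein coding for 28 of 33 genes. It was a retained intron transcript, ZDHHC4-211, for ZDHHC4, holding 33.4% of the gene's TPM, and a retained intron transcript for ZDHHC19. For LYPLA1 and NMT2 it was a transcript without a defined coding sequence, LYPLA1-208 and NMT2-203, holding 27.3% and 45.6%, and for ZDHHC11B a nonsense-mediated decay transcript. In other genes 1 coding transcript dominated, such as ZDHHC12-201 with 92.7%, LYPLA2-205 with 87.0% and ABHD17A-202 with 83.1%. ZDHHC5 was shared by the coding transcripts ZDHHC5-201 (50.2%) and ZDHHC5-206 (36.8%). ZDHHC6 was split among ZDHHC6-202 (23.4%, coding), ZDHHC6-216 (13.5%, retained intron), ZDHHC6-201 (12.7%, coding) and ZDHHC6-203 (11.8%, no defined coding sequence). The coding transcripts of ZDHHC4 above 10% were ZDHHC4-209 (14.6%) and ZDHHC4-206 (12.9%), and that of LYPLA1 was LYPLA1-201 (25.9%). Splits between transcripts of 1 gene are Salmon's estimates and less certain than the gene sums.

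The protein-coding share of TPM was lower in the knockdown after CSM for 4 of 30 members, with no overlap between the groups, against 8.08% of all 11199 genes compared. For ZDHHC4 the coding share was 24.0%, 31.6%, 32.95% and 43.6% in the CSM libraries labelled FASN knockdown, against 46.7%, 68.7%, 51.8% and 80.0% in the control libraries after CSM. For NMT2 it was 34.0%, 48.8%, 35.9% and 43.0% in those knockdown libraries, against 59.1%, 55.0%, 73.3% and 70.3% in the control libraries. The other 2 genes were PPT2 and ABHD17C, at 72.3 ± 3.47% and 83.6 ± 3.69% in those knockdown libraries and 82.0 ± 1.13% and 95.3 ± 5.56% in the control libraries (SD, n = 4 each). In regular medium 0 of 30 members were lower without overlap, against 3.11% of all genes. The mean share was lower after CSM for 24 of 30 members, and it was lower for 71.5% of all genes.

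**Figure D5:**
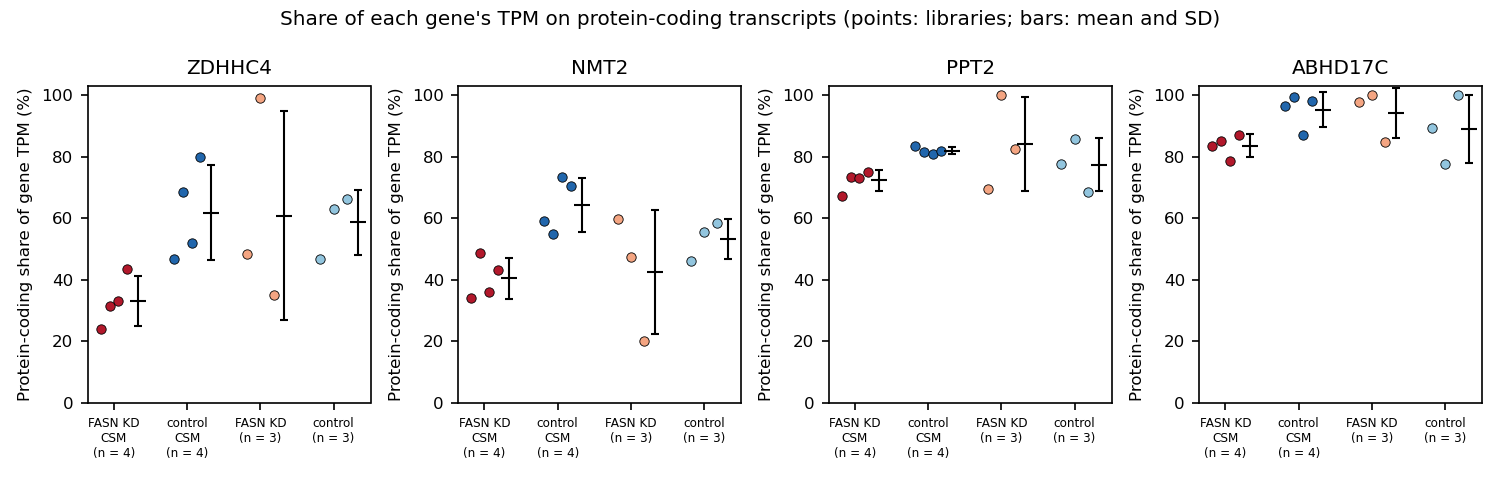
Percent of each gene's TPM on protein-coding transcripts for ZDHHC4, NMT2, PPT2 and ABHD17C in every library (points) with the group mean and SD, in the 4 groups. After CSM the knockdown and control libraries do not overlap for any of the 4 genes, while in regular medium ZDHHC4 runs from 34.9% to 99.2% in the knockdown libraries.

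Genes around these enzymes were described from 7 lists. Of the 3 protein partners of ZDHHC enzymes tested, 0 were called averaged over both media, and GOLGA7, the partner of ZDHHC9, and GOLGA7B had log2 fold changes of -0.18 and 0.23. Of the 11 other thioesterases and serine hydrolases, 0 were called, and ACOT7 and ACOT2, both acyl-CoA thioesterases, had the smallest p, with log2 fold changes of -0.37 and 0.26. Of the 11 prenylation enzymes, which attach the alternative lipid anchor, 0 were called. FNTB, the farnesyltransferase beta subunit, had -0.35 and CHM, a Rab escort protein, had -0.26.

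Of 15 genes of acyl-CoA supply, 3 were called averaged over both media (20%, against 3.52% of all genes). FASN was lower, as above. It is the target of the knockdown, so its call says nothing about the list. The other 2 calls were higher, in a list chosen with earlier results of these data known. SCD, the stearoyl-CoA desaturase, rose, with a log2 fold change of 1.55 (SE 0.35, adjusted p = 0.0252 in edgeR). ACSS2, which makes acetyl-CoA from acetate, rose with 0.80 (SE 0.20, adjusted p = 0.036 in edgeR). In regular medium SCD had 1493, 1842 and 343 CPM in the knockdown libraries, against 472, 416 and 394 CPM in the control libraries, so 1 knockdown library lay below every control. SCD averaged 2010 ± 688 CPM in the CSM libraries labelled FASN knockdown and 669 ± 359 CPM in the control libraries after CSM (SD, n = 4 each). Of 3 tested genes for acylation of secreted proteins, NOTUM, a carboxylesterase that strips palmitoleate from Wnt, met the threshold. It averaged 0.0792 ± 0.0579 CPM in those knockdown libraries and 0.622 ± 0.236 CPM in the control libraries after CSM (SD, n = 4 each), and it passed the filter on low counts only through control libraries, so its call is no support for a change of the list.

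Among proteins known to be S-acylated, 4 of 46 tested genes (8.7%) were called averaged over both media, against 3.52% of all genes. GNAI1, a G protein alpha subunit, was lower at -1.20 (SE 0.25, adjusted p = 0.0195), and TEAD4, a Hippo pathway transcription factor that is auto-palmitoylated, was lower at -0.68 (SE 0.16, adjusted p = 0.0276). FAS, the death receptor, was higher at 0.74 (SE 0.18, adjusted p = 0.0366), and CD82, a tetraspanin, was higher at 0.78 (SE 0.20, adjusted p = 0.04), all by edgeR. GNAI1 had 3.58, 3.59, 3.23 and 2.83 CPM in the CSM libraries labelled FASN knockdown, against 5.87, 5.76, 8.00 and 7.03 CPM in the control libraries after CSM. In regular medium it had 3.92, 4.66 and 1.34 CPM in the knockdown libraries, against 6.46, 9.38 and 9.97 CPM in the control libraries, and the groups did not overlap in either medium. Among proteins known to be N-myristoylated, 1 of 36 tested genes (2.78%) was called, a share near the 3.52% of all genes. It was FYN, a Src family kinase, lower at -1.02 (SE 0.27, adjusted p = 0.0478 in edgeR). After CSM, 41 of 46 S-acylated and 33 of 36 N-myristoylated genes had a log2 fold change below 0, with medians of -0.41 and -0.28. Among tested genes with a protein-coding transcript, 63.4% were below 0. So were 11 of 11 other thioesterases and serine hydrolases, 9 of 11 prenylation enzymes and 7 of 15 genes of acyl-CoA supply. The lists were fitted in the main test alone, and the direction of the enzyme genes in this contrast depended on the scaling. The list members were chosen with earlier results of these data known. In either medium alone, FASN in regular medium was the only call of the 7 lists.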

How the data were processed

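RNA was measured in 14 xenograft libraries, grouped and numbered by their titles. The submitters' processing notes name FastQC, cutadapt and Salmon, with GRCh38 as the build, and the sources used here give no versions, settings or annotation release. The authors deposited per library a Salmon table with expected counts per transcript, not normalised, and with TPM, a level per effective length, per the file headers. Mouse transcripts are not listed there, so mouse reads were left unassigned or given to similar human transcripts. Expected counts were summed per gene over 252048 transcripts and rounded to whole numbers. Total counts of 15810287 to 45209466 per library set the precision. No column of per-library values was left unmapped.

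The main test was edgeR's quasi-likelihood test (version 4.0.16, R 4.3.3), with TMM factors and filterByExpr at its defaults (minimum count 10, minimum total 15), which kept 22560 genes. All 14 libraries entered 1 fit with a coefficient per group and no block, 10 residual degrees of freedom and a biological coefficient of variation of 0.444. The threshold for a call was an adjusted p below 0.05 (Benjamini-Hochberg, over all genes tested). Every adjusted p without another tool's name is from this fit, and 95% intervals come from its standard errors. Coordinates are from GENCODE release 29 (GRCh38) and promoter windows from RefSeq (GRCh38.p14).

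The members and gene lists were chosen with earlier results of these data known. Described in full were members called in a contrast, the 3 with the smallest p in each and the 3 with the highest TPM; of other lists, up to 4 called genes or the 2 with the smallest p; and transcripts with at least 10% of a gene's TPM. Alternatives were DESeq2 1.42.0, limma 3.58.1 on log2(TPM + 1), other factors and filters, protein-coding genes or transcripts alone, a length offset, the 7SL share as covariate, the contrast's groups alone, the replicate number as block and each library left out. Leaving out both libraries above 15% 7SL was chosen after seeing the data. ZDHHC19 failed the filter and was not tested.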

Additional observations from a re-analysis of the deposited data

Results flagged for a closer look

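In groups of 4 libraries, 4 of 64 gene and group combinations held a library whose gap to its nearest neighbour was large for the range of the group, and chance gives about 1 in 20. Replicate 1 of the FASN knockdown after CSM stood apart for 3 genes. It had the lowest ZDHHC5, at 85.1 CPM against 108, 112 and 113 CPM in the other replicates, and the lowest NMT1, at 80.1 CPM against 100, 102 and 104 CPM. It had the highest ZDHHC1, at 4.11 CPM against 2.56, 2.7 and 2.81 CPM. Replicate 3 of the control after CSM, which had 16.3% 7SL, had the lowest NMT2, at 21.4 CPM against 24.4, 24.5 and 24.6 CPM.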

How the results depend on the processing

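The alternatives were run for FASN, for the counts of members called and for the members described with a fold change; genes of the other lists were fitted in the main test alone. The count of members called averaged over both media, 1 in edgeR, was 0 with RLE or upper-quartile factors, with no filter, with at least 2 CPM in 3 libraries, with the replicate block, with the length offset, with protein-coding transcripts alone, with limma on log2(TPM + 1) and without the 2 libraries above 15% 7SL, and 2 with DESeq2. Leaving out a library gave 0 to 1. With protein-coding genes alone the 1 call was ZDHHC6 in place of ZDHHC4. After CSM DESeq2 called 2 members against 0 in edgeR. The fall of FASN in regular medium was past the threshold at -1.94 but not with the contrast's groups alone (-1.92), the replicate block (-1.94, adjusted p = 0.0847), the length offset (-1.64), limma (-1.88) or without the 2 libraries above 15% 7SL (-1.84), and leaving out a library gave -2.07 to -1.73, none past the threshold. After CSM limma turned FASN to 0.19. Limma also turned ZDHHC2 after CSM to 0.21, PPT1 between media in knockdown cells to 0.51, and the interactions of PPT1 and LYPLA1 to 0.33 and 0.31, and the 7SL covariate turned PPT1 between media in knockdown cells to 0.27 and the interaction of LYPLA1 to 0.055. After CSM limma turned PPT1 to 0.0797, ZDHHC5 to 0.411, NMT1 to 0.558 and NMT2 to 0.814. NMT1 after CSM was also above 0 with upper-quartile factors (0.0217), protein-coding genes alone (0.00697) and protein-coding transcripts alone (0.0126), and NMT2 with upper-quartile factors (0.129), at least 2 CPM in 3 libraries (0.0577), protein-coding genes alone (0.115), the contrast's groups alone (0.00476) and the length offset (0.234). In regular medium NMT2 was below 0 with protein-coding transcripts alone (-0.0657), limma (-0.042) and without the 2 libraries above 15% 7SL (-0.00724). Leaving out a library gave NMT2 -0.106 to 0.0592 after CSM and -0.0809 to 0.189 in regular medium, and ZDHHC5 -0.0254 to 0.0994 in regular medium. The cause was not tested. The labels share replicate numbers across groups, but deviations of same-numbered libraries correlated at -0.38 to 0.33, so the numbers were not taken as pairs; with the block the genes called averaged over both media numbered 254, against 795 without it. At depths of 15810287 to 45209466 counts, ZDHHC19 had 23 counts over all libraries and was not tested, and ZDHHC22 rested on 883 counts over all libraries.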

Other observations

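PPT1 fell into separate patterns of transcript use across libraries of all groups. PPT1-202, a nonsense-mediated decay transcript, was listed at 0 TPM in 6 of 14 libraries, and in those PPT1-219, a protein-coding transcript, held 74.5% to 96.0% of the gene's TPM. In the other 8 libraries PPT1-202 held 12.5% to 41.6% and PPT1-219 held 23.3% to 45.0%. The 6 libraries were replicates 3 and 4 of the FASN knockdown after CSM, replicates 1 and 2 of the control after CSM, replicate 3 of the FASN knockdown and replicate 1 of the control. Salmon estimates the split within a gene, and an estimate of 0 for 1 transcript can be a failed split.

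Summed over all genes with a protein-coding transcript, tested or not, the protein-coding share of TPM was 70.6% and 74.4% in replicates 1 and 2 of the FASN knockdown after CSM. It was 76.4% to 83.2% in the other 12 libraries.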
